A study of Rattus norvegicus with 18 samples.

Results

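Type I interferon response genes were followed in messenger RNA sequencing of rat dorsal root ganglia, which contain sensory neuron cell bodies, glia, vessels and resident immune cells. The genes were 35 named genes, and all 35 were found once among the 25678 genes of the deposited count table and passed the filter on low counts, which left 17043 genes for testing. The study concerns Shentong Zhuyu decoction, a herbal preparation of traditional Chinese medicine, in a rat model of neuropathic pain. Its 18 libraries formed 6 groups of 3: NPP_herb (disease state NPP, treated with herb), NPP_solvent (NPP with solvent), Sham_herb (Sham with herb), Sham_solvent (Sham with solvent), Ctrl_solvent (Ctrl with solvent) and Ctrl (disease state and treatment both given as Ctrl). The sources used here do not give strain, age, how the model was made, dose or time of sampling. The labels leave unsaid whether replicate libraries stem from different rats, so every p-value reflects the spread among these libraries alone, which may be technical.

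Type I interferons bind a receptor of the subunits Ifnar1 and Ifnar2 and signal through the kinases Jak1 and Tyk2 to a transcription factor complex called ISGF3, which includes Stat2 and Irf9. ISGF3 binds the interferon-stimulated response element in promoters and switches on genes for sensors of foreign nucleic acid, for antiviral effectors and for the pathway's own factors and brakes. In ganglia, neurons, glia and resident macrophages can all answer to interferon, and interferon signalling in sensory neurons has been studied in relation to pain.

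The response element links these genes to the factor that drives them, so stretches of promoter are shown for members of different roles. The core searched was GAAANNGAAA (N is any base) on both strands of promoters from 250 bases before to 50 bases after the gene start, from RefSeq on build GRCr8. It was found in 15 of the 26 members with a promoter in the table (57.7%) and in 3.92% of all 33469 promoters. A member counted if any of its promoters held the core, whereas the second share is of single promoters, so the units differ. Capitals mark the core or its reverse complement, overlapping cores are joined, and each stretch reads 5′ to 3′ on the gene's strand.
Irf7: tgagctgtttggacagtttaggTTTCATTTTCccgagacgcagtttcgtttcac
Ifit3: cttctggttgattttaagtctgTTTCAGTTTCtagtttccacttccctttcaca
Oas1a: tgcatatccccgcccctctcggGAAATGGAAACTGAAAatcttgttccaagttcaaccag
Oas1b: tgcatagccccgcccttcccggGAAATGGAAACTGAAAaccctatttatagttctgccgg
Rsad2: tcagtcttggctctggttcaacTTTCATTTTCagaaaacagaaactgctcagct
Bst2: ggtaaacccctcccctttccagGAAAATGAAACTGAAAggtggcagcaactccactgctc
Parp14: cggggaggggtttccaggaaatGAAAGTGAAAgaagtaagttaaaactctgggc
Ifi27: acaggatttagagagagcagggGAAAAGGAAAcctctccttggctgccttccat
The Irf7 stretch lies at chr1:205800061-205800114, that of Ifit3 at chr1:241527260-241527313, that of Oas1a at chr12:41330403-41330462 and that of Oas1b at chr12:41395874-41395933. The Rsad2 stretch lies at chr6:48788236-48788289, that of Bst2 at chr16:18255061-18255120, that of Parp14 at chr11:78408036-78408089 and that of Ifi27 at chr6:128355121-128355174. Irf7, Oas1b, Rsad2 and Bst2 are on the minus strand and the other 4 on the plus strand. Oas1a and Oas1b, both on chromosome 12, each carry 2 overlapping cores, and Bst2 also carries 2 overlapping cores. Ifi27 holds 2 cores, of which the one farther from the gene start is shown, and is printed because its level varied least of the 35 genes. The core was not found in 11 members with a promoter, among them Stat2, Irf9 and Mx1, which says only that these letters are not in this window. Isg15, Usp18, Dhx58, Zbp1, Oas2, Ifit1, Ifit2, Mx2 and Rtp4 had no promoter in the table.

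Libraries held 18170925 to 50289652 counted reads. The 8 sensory neuron markers summed to 16400 to 22800 CPM (reads of a gene per 1000000 reads of the library) in all libraries. Satellite glia and Schwann cell markers were all detected. The 5 spinal cord markers summed to between 8.36 CPM (Ctrl replicate 3) and 41.1 CPM (Ctrl_solvent replicate 3). Most of this was Gfap, at 7.70 to 35.2 CPM, and Aqp4, at 0.294 to 13.3 CPM. Gfap was highest in Ctrl_solvent replicate 3. The oligodendrocyte gene Mog, also on this list, stayed between 0 and 0.432 CPM. Reads of Eif2s3y, a Y-linked gene, numbered 1 and 0 in Ctrl replicates 2 and 3, against 2180 to 6568 in the other 16 libraries. Leaving both out was decided once the data had been seen, and it left Ctrl replicate 1 as the only Ctrl library. The members' median log2 fold change of Ctrl_solvent over Ctrl was then 2.59, beside 2.63 with all libraries. With a single Ctrl library, this says nothing on the spread in Ctrl.

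Within each solvent group, the interferon response genes differed widely between libraries. Together the 35 genes summed to 805, 739 and 681 CPM in NPP_herb replicates 1, 2 and 3 and to 2624, 2487 and 583 CPM in NPP_solvent. The sums were 1461, 1206 and 790 CPM in Sham_herb and 1075, 2514 and 811 CPM in Sham_solvent. In Ctrl_solvent they were 3898, 627 and 3054 CPM, against 719, 730 and 620 CPM in Ctrl. Ctrl_solvent replicates 1 and 3, NPP_solvent replicates 1 and 2 and Sham_solvent replicate 2 were high, Sham_herb replicates 1 and 2 stood between, and the other 11 libraries lay at 583 to 1075 CPM. Each of the 3 solvent groups thus held high and low libraries, while NPP_herb and Ctrl held low ones alone. In bulk tissue, fewer cells of a type and less RNA per cell cannot be told apart.

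**Figure D1:**
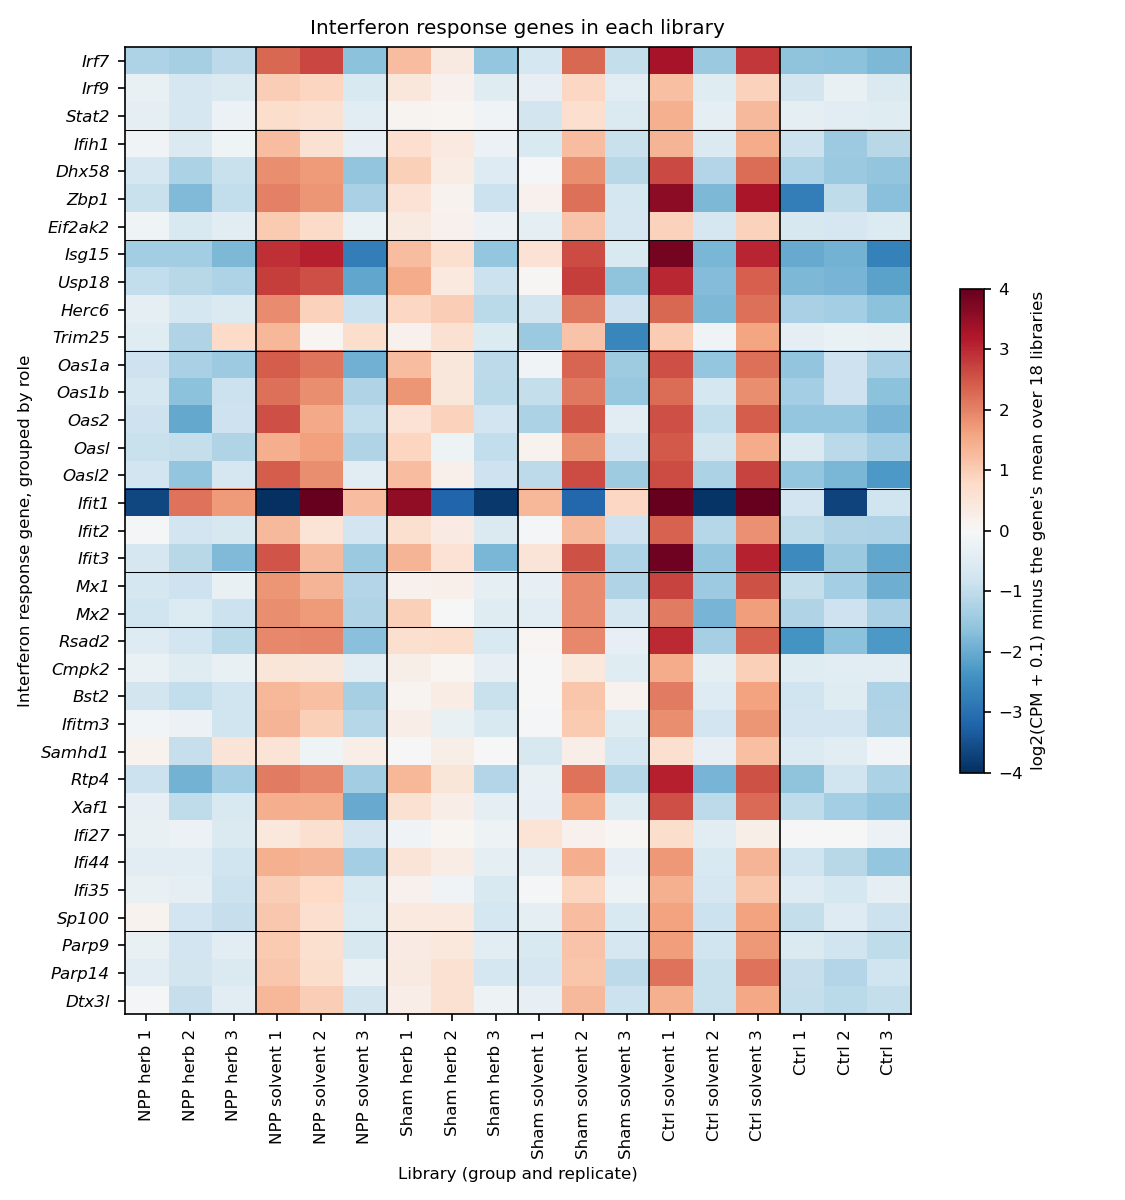
Level of each interferon response gene (rows, by role) in each library (columns, by group and replicate), as log2(CPM + 0.1) after subtraction of that gene's average across libraries; red is above and blue below the average. The same 5 libraries are red in most rows, Ifit1 is dark blue in NPP_solvent replicate 1 and Sham_solvent replicate 2, and Ifi27 and Samhd1 are pale throughout.

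The same 5 libraries were the highest 5 in 27 of the 35 members, against 0.857% of all genes tested. These 5 are the most frequent such set among the members themselves, and the share of all genes includes the members, so this is a description only. Ctrl_solvent replicate 1 was the highest library for 28 members, Ctrl_solvent replicate 3 for 6 and Sham_solvent replicate 2 for 1 (Eif2ak2). Within NPP_solvent the median member ranged over 2.79 log2 units between its 3 libraries, against 0.40 for the median gene tested. The same range was 2.26 against 0.47 in Sham_solvent and 3.20 against 0.39 in Ctrl_solvent. It was 0.56 against 0.41 in NPP_herb, 1.21 against 0.27 in Sham_herb and 0.44 against 0.36 in Ctrl. Replicates of NPP_herb and of Ctrl therefore differed little more in these genes than in others.

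The signalling factors of the list feed the response forward. Irf7, the factor that drives production of more interferon alpha, had 10.8, 9.98 and 12.3 CPM in NPP_herb against 126, 161 and 8.07 in NPP_solvent, 59.9, 32.4 and 8.60 in Sham_herb against 15.6, 124 and 13.1 in Sham_solvent, and 252, 9.04 and 182 in Ctrl_solvent against 8.18, 8.10 and 7.15 in Ctrl. All 3 Ctrl_solvent libraries lay above the Ctrl libraries, but Ctrl_solvent replicate 2 only just, and NPP_solvent replicate 3 lay below every NPP_herb library. Irf9, the DNA-binding subunit of ISGF3, had 33.8, 26.1 and 28.0 CPM in NPP_herb against 81.1, 75.8 and 27.0 in NPP_solvent, 57.0, 46.5 and 29.8 in Sham_herb against 33.2, 74.3 and 31.0 in Sham_solvent, and 95.4, 29.2 and 78.4 in Ctrl_solvent against 25.1, 33.5 and 27.7 in Ctrl. Stat2, its partner, had 37.8, 30.7 and 41.7 CPM in NPP_herb against 79.3, 75.2 and 35.3 in NPP_solvent, 53.1, 51.5 and 44.3 in Sham_herb against 29.1, 77.4 and 32.4 in Sham_solvent, and 130.4, 37.8 and 121 in Ctrl_solvent against 38.0, 35.9 and 34.6 in Ctrl. For both, NPP_herb overlapped NPP_solvent and Ctrl_solvent overlapped Ctrl, with NPP_solvent replicate 3 and Ctrl_solvent replicate 2 among the low libraries. Stat2 was one of 8 members in which all NPP_herb libraries lay below all Sham_herb libraries.

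Among the sensors, Ifih1 (MDA5), which detects long double-stranded RNA, had 6.83, 5.07 and 6.65 CPM in NPP_herb against 17.8, 11.6 and 6.04 in NPP_solvent, 12.1, 9.87 and 6.41 in Sham_herb against 4.96, 17.97 and 4.05 in Sham_solvent, and 19.5, 5.06 and 21.2 in Ctrl_solvent against 4.16, 2.72 and 3.43 in Ctrl. Dhx58 (LGP2), its regulator, had 4.73, 3.12 and 4.02 CPM in NPP_herb against 28.0, 25.1 and 2.47 in NPP_solvent, 14.8, 9.45 and 5.33 in Sham_herb against 7.11, 27.5 and 3.44 in Sham_solvent, and 48.4, 3.30 and 36.3 in Ctrl_solvent against 3.17, 2.67 and 2.45 in Ctrl. A Ctrl library was the lowest for each, and the Ctrl_solvent and Ctrl libraries did not overlap. Zbp1, a sensor of Z-form nucleic acids that can trigger cell death, had 0.806, 0.390 and 0.742 CPM in NPP_herb against 6.70, 5.51 and 0.571 in NPP_solvent, 2.40, 1.75 and 0.818 in Sham_herb against 1.79, 7.52 and 0.912 in Sham_solvent, and 19.8, 0.379 and 15.8 in Ctrl_solvent against 0.147, 0.728 and 0.424 in Ctrl. It was below 1 CPM in all NPP_herb and Ctrl libraries, in replicate 3 of NPP_solvent, Sham_herb and Sham_solvent, and in Ctrl_solvent replicate 2. Eif2ak2 (PKR), the kinase that halts translation when it meets double-stranded RNA, had 46.3, 34.5 and 38.4 CPM in NPP_herb against 108, 88.3 and 43.2 in NPP_solvent, 66.4, 58.6 and 44.7 in Sham_herb against 39.5, 114 and 32.5 in Sham_solvent, and 99.0, 32.9 and 99.2 in Ctrl_solvent against 33.4, 32.4 and 35.4 in Ctrl. The same 5 libraries were highest, but lowest and highest lay only 1.81 log2 units apart.

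The ubiquitin-like system held the member with the widest range after Ifit1. Isg15, the small protein that is attached to others after interferon, had 5.43, 5.35 and 3.996 CPM in NPP_herb against 108, 123.3 and 2.01 in NPP_solvent, 33.4, 22.04 and 4.84 in Sham_herb against 21.3, 86.9 and 9.39 in Sham_solvent, and 203, 3.95 and 119 in Ctrl_solvent against 3.43, 3.78 and 2.12 in Ctrl. NPP_solvent held both the second highest value (replicate 2) and the lowest value of all (replicate 3), and Ctrl_solvent lay above Ctrl with a narrow gap between replicate 2 of each. Usp18, which removes Isg15 from its targets and damps the interferon receptor, had 6.56, 5.96 and 5.42 CPM in NPP_herb against 90, 77.9 and 3.02 in NPP_solvent, 36.3, 17.0 and 7.06 in Sham_herb against 13.4, 88.9 and 4.22 in Sham_solvent, and 107, 3.81 and 68.7 in Ctrl_solvent against 3.72, 3.54 and 2.87 in Ctrl. NPP_solvent replicate 3 was again below all NPP_herb libraries, and the Ctrl_solvent and Ctrl libraries again did not overlap. Herc6, the ligase that attaches Isg15 in mouse, had 6.29, 4.91 and 5.39 CPM in NPP_herb against 30.3, 15.4 and 4.43 in NPP_solvent, 14.5, 16.2 and 3.83 in Sham_herb against 4.80, 35.2 and 4.56 in Sham_solvent, and 40.0, 2.27 and 37.9 in Ctrl_solvent against 3.28, 3.10 and 2.51 in Ctrl. Trim25, a ubiquitin ligase of the RNA-sensing pathway, had 1.07, 0.613 and 2.65 CPM in NPP_herb against 4.04, 1.63 and 2.58 in NPP_solvent, 1.73, 2.39 and 1.01 in Sham_herb against 0.488, 3.50 and 0.169 in Sham_solvent, and 3.19, 1.38 and 4.72 in Ctrl_solvent against 1.14, 1.26 and 1.24 in Ctrl. In Herc6, Sham_herb replicate 2 exceeded NPP_solvent replicate 2, and in Trim25, NPP_herb replicate 3 exceeded NPP_solvent replicates 2 and 3.

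Members of the 2′,5′-oligoadenylate synthetase family make the messenger that activates RNase L. Oas1a had 6.23, 4.46 and 3.97 CPM in NPP_herb against 59.96, 49.1 and 2.88 in NPP_solvent, 26.04, 15.2 and 5.36 in Sham_herb against 9.998, 55.7 and 4.12 in Sham_solvent, and 67.5, 3.73 and 51.8 in Ctrl_solvent against 3.68, 6.21 and 4.44 in Ctrl. Oas2 had 1.02, 0.390 and 1.03 CPM in NPP_herb against 11.8, 5.65 and 0.924 in NPP_solvent, 2.92, 3.72 and 1.08 in Sham_herb against 0.732, 11.2 and 1.39 in Sham_solvent, and 11.8, 0.920 and 10.6 in Ctrl_solvent against 0.589, 0.582 and 0.457 in Ctrl. Oasl2, an Oas-like protein, had 5.16, 2.90 and 5.48 CPM in NPP_herb against 47.6, 31.9 and 6.42 in NPP_solvent, 20.7, 10.2 and 4.91 in Sham_herb against 4.19, 54.6 and 3.24 in Sham_solvent, and 53.6, 3.63 and 58.1 in Ctrl_solvent against 2.91, 2.42 and 1.70 in Ctrl. In Oasl2 every NPP_herb library lay below every NPP_solvent library and every Ctrl library below every Ctrl_solvent library, while Oas1a overlapped in both pairs. The rat genome holds several close Oas1 copies, so reads may be split between them and their single levels are uncertain.

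The IFIT proteins bind foreign RNA and are encoded in a gene cluster. Ifit2 had 19.3, 11.6 and 12.6 CPM in NPP_herb against 49.2, 29.2 and 11.6 in NPP_solvent, 30.6, 25.0 and 13.2 in Sham_herb against 18.6, 48.4 and 11.1 in Sham_solvent, and 103, 8.82 and 69.9 in Ctrl_solvent against 9.76, 8.49 and 8.36 in Ctrl. Ifit3 had 3.12, 2.23 and 1.40 CPM in NPP_herb against 28.7, 12.5 and 1.71 in NPP_solvent, 12.8, 7.44 and 1.34 in Sham_herb against 7.19, 29.6 and 2.06 in Sham_solvent, and 74.8, 1.60 and 42.4 in Ctrl_solvent against 0.773, 1.70 and 1.11 in Ctrl. Both overlapped in each pair of groups, and Sham_herb replicate 1 exceeded NPP_solvent replicate 2 in both. Ifit1 had 0.0537, 8.53 and 6.14 CPM in NPP_herb against 0, 56.1 and 4.40 in NPP_solvent, 22.4, 0.114 and 0.0327 in Sham_herb against 4.75, 0.118 and 3.28 in Sham_solvent, and 119, 0.0271 and 87.8 in Ctrl_solvent against 1.03, 0.0485 and 1.01 in Ctrl. In reads, Ifit1 had 0 in NPP_solvent replicate 1 and 6 in Sham_solvent replicate 2, libraries where its neighbours were high, and 1617 in NPP_solvent replicate 2. It had 6 reads or fewer in 7 libraries, spread over all 6 groups, and 28 to 2192 reads in the other 11. Its profile differed from the members' mean profile by a root mean square of 3.22 log2 units, against a median of 0.547 for the 35 members. The related Ifit1bl had 37 to 221 reads in every library. It had 82 in NPP_solvent replicate 1 and 221 in Sham_solvent replicate 2, and 85 in Ctrl_solvent replicate 1, where Ifit1 had 2192. Reads could be shared between such close copies, and the part of this in the Ifit1 values was not tested.

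**Figure D2:**
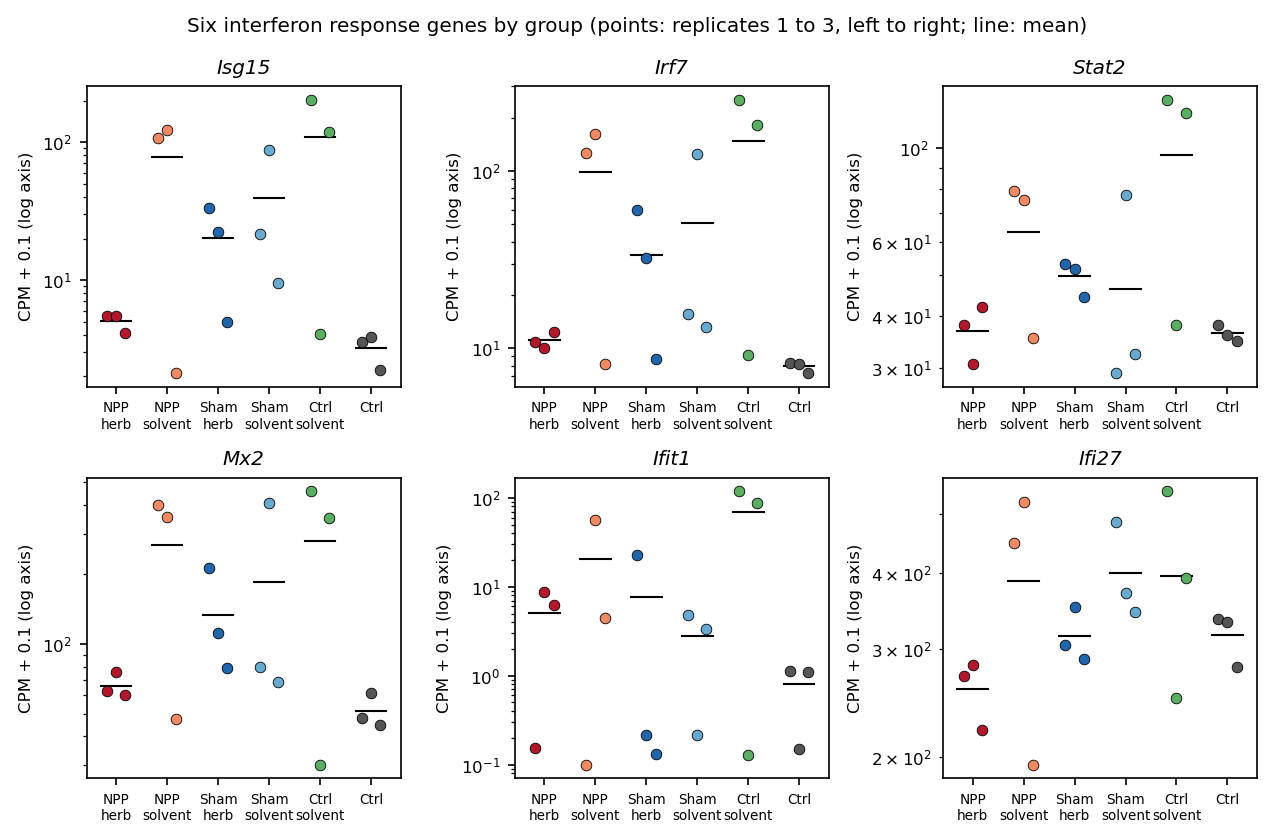
CPM + 0.1 (log axis) of Isg15, Irf7, Stat2, Mx2, Ifit1 and Ifi27 in the 6 groups; points are replicates 1 to 3 from left to right and the line is the mean. Isg15, Irf7, Stat2 and Mx2 show the same high and low libraries inside each solvent group, Ifit1 has its own set of low libraries, and Ifi27 spans 1.49 log2 units in all.

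The MX proteins are dynamin-like GTPases that trap viral components. Mx1 had 14.1, 12.9 and 18.8 CPM in NPP_herb against 78.5, 59.5 and 10.1 in NPP_solvent, 25.9, 26.2 and 17.7 in Sham_herb against 18.2, 84.9 and 9.86 in Sham_solvent, and 149, 8.28 and 133 in Ctrl_solvent against 11.8, 8.97 and 5.81 in Ctrl. Mx2 had 62.7, 75.3 and 60.2 CPM in NPP_herb against 399.8, 352 and 47.2 in NPP_solvent, 212, 111 and 78.4 in Sham_herb against 79.9, 405 and 68.4 in Sham_solvent, and 457, 30.1 and 351 in Ctrl_solvent against 47.6, 61.2 and 44.7 in Ctrl. NPP_solvent replicate 3 was below all NPP_herb libraries in both, and Ctrl_solvent replicate 2 was the lowest library of all for Mx2. Reads of such similar genes may be shared where sequences match.

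The remaining effectors act at membranes or on nucleotides. Rsad2 (viperin), which makes a chain-terminating nucleotide, had 10.5, 8.81 and 7.11 CPM in NPP_herb against 57.4, 58.5 and 4.68 in NPP_solvent, 23.6, 24.5 and 9.78 in Sham_herb against 16.1, 57.0 and 11.9 in Sham_solvent, and 121, 5.98 and 79.7 in Ctrl_solvent against 2.76, 4.75 and 3.004 in Ctrl. Cmpk2, a mitochondrial nucleotide kinase encoded next to Rsad2, had 26.3, 22.5 and 25.5 CPM in NPP_herb against 44.2, 43.7 and 23.0 in NPP_solvent, 37.0, 33.2 and 25.5 in Sham_herb against 31.4, 42.7 and 22.6 in Sham_solvent, and 89.5, 23.9 and 61.5 in Ctrl_solvent against 22.8, 23.2 and 23.7 in Ctrl. Both were higher in all Ctrl_solvent than in all Ctrl libraries, and for Cmpk2 the nearest libraries of these groups differed little. Bst2 (tetherin), which holds budding virus at the cell surface, had 11.8, 9.81 and 11.4 CPM in NPP_herb against 49.0, 44.9 and 7.69 in NPP_solvent, 21.0, 23.9 and 10.6 in Sham_herb against 19.2, 42.2 and 21.5 in Sham_solvent, and 83.4, 13.8 and 59.5 in Ctrl_solvent against 11.2, 13.9 and 8.36 in Ctrl. Ifitm3, which hinders viral fusion with membranes, had 64.1, 58.1 and 39.2 CPM in NPP_herb against 178, 132 and 31.4 in NPP_solvent, 82.8, 56.0 and 44.6 in Sham_herb against 65.1, 143 and 49.0 in Sham_solvent, and 252, 40.7 and 233 in Ctrl_solvent against 40.1, 40.2 and 29.7 in Ctrl. In both, NPP_solvent replicate 3 was lower than every NPP_herb library. Rtp4, a transporter of receptors to the membrane, had 7.31, 3.51 and 5.11 CPM in NPP_herb against 55.9, 50.9 and 5.002 in NPP_solvent, 33.4, 18.7 and 5.85 in Sham_herb against 10.7, 60.5 and 5.94 in Sham_solvent, and 116, 3.63 and 77.7 in Ctrl_solvent against 4.31, 7.66 and 5.42 in Ctrl. Xaf1, a partner of the apoptosis inhibitor XIAP, had 9.35, 5.80 and 7.59 CPM in NPP_herb against 32.3, 31.8 and 2.85 in NPP_solvent, 17.8, 14.2 and 8.90 in Sham_herb against 9.27, 35.4 and 8.38 in Sham_solvent, and 70.9, 5.57 and 57.0 in Ctrl_solvent against 5.75, 4.56 and 3.85 in Ctrl. Samhd1, which breaks down deoxynucleotides, had 3.87, 1.78 and 5.05 CPM in NPP_herb against 5.20, 3.12 and 4.27 in NPP_solvent, 3.56, 4.17 and 3.56 in Sham_herb against 2.23, 4.26 and 2.09 in Sham_solvent, and 5.52, 2.76 and 8.22 in Ctrl_solvent against 2.39, 2.52 and 3.23 in Ctrl. All 3 overlapped in each pair of groups, and in Samhd1 NPP_herb replicate 3 exceeded NPP_solvent replicates 2 and 3.

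Parp9 and Dtx3l form a complex that adds ADP-ribose and ubiquitin, and Parp14 is a further ADP-ribosyltransferase. Parp9 had 19.6, 14.2 and 17.8 CPM in NPP_herb against 50.1, 37.7 and 15.3 in NPP_solvent, 30.6, 32.7 and 18.02 in Sham_herb against 15.8, 53.6 and 15.2 in Sham_solvent, and 77.3, 13.8 and 80.9 in Ctrl_solvent against 16.1, 13.9 and 11.9 in Ctrl. Parp14 had 15.9, 13.2 and 14.9 CPM in NPP_herb against 47.0, 36.1 and 17.97 in NPP_solvent, 28.1, 33.8 and 13.6 in Sham_herb against 13.7, 47.6 and 10.7 in Sham_solvent, and 100.4, 11.9 and 98.9 in Ctrl_solvent against 11.6, 9.70 and 12.7 in Ctrl. Dtx3l had 22.2, 12.5 and 17.3 CPM in NPP_herb against 59.4, 47.3 and 14.2 in NPP_solvent, 28.6, 36.4 and 20.3 in Sham_herb against 18.6, 57.6 and 13.0 in Sham_solvent, and 63.2, 12.6 and 69.1 in Ctrl_solvent against 12.1, 11.2 and 12.2 in Ctrl. Parp14 was one of 2 members, with Oasl2, whose NPP_herb libraries all lay below the NPP_solvent libraries. In Dtx3l the Ctrl_solvent and Ctrl libraries did not overlap. The other members given no values by library, Oas1b, Oasl, Ifi44, Ifi35 and Sp100, shared the same 5 highest libraries and ran from 2.45 to 38.1, 2.55 to 37.1, 17.6 to 173, 5.71 to 28.6 and 7.40 to 44.0 CPM.

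Levels of different genes can be compared per length in the deposited FPKM (reads scaled to gene length and library size). Ifi27, a small mitochondrial protein, had the highest median FPKM of the members over the 18 libraries, at 345, and next came Ifitm3 at 84.2 and Bst2 at 18.1. The lowest medians were 0.125 for Oas2 and 0.150 for Zbp1. Ifi27 also varied least, with 271, 283 and 221 CPM in NPP_herb against 447, 522 and 194 in NPP_solvent, 304, 352 and 289 in Sham_herb against 485, 371 and 345 in Sham_solvent, and 545, 249 and 392 in Ctrl_solvent against 336, 333 and 280.2 in Ctrl. Its libraries covered 1.49 log2 units, and Sham_solvent replicate 1, low for most members, was exceeded only by NPP_solvent replicate 2 and Ctrl_solvent replicate 1.

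NPP_herb was set against NPP_solvent to see the herb treatment in the pain model. All 35 members had lower fitted levels in NPP_herb, with a median log2 fold change of -1.59 against -0.0074 for all genes tested, and a range of -3.99 (Isg15) to -0.22 (Samhd1). No member passed the threshold (edgeR, every member at adjusted p = 1), as no gene did (0% of genes called), and DESeq2 called 1 gene, which was not a member. At an unadjusted p under 0.05 there were 11 members, against 1.87% of all genes. Groups did not overlap in 2 members, Oasl2 and Parp14, both lower in NPP_herb, which is 5.71% of members beside 2.61% of all genes in that direction. The fitted log2 fold change was -3.99 ± 1.503 for Isg15, -3.15 ± 1.31 for Irf7 and -3.25 ± 1.39 for Usp18 (SE, n = 3 libraries per group, edgeR, all with adjusted p = 1). Within the signalling factors, the log2 fold change was -1.06 ± 0.49 for Irf9 and -0.78 ± 0.45 for Stat2. Among the nucleic acid sensors, the log2 fold change was -0.93 ± 0.60 for Ifih1, -2.22 ± 1.03 for Dhx58, -2.68 ± 1.25 for Zbp1 and -1.003 ± 0.49 for Eif2ak2. Within the ubiquitin-like system, the log2 fold change was -1.59 ± 1.05 for Herc6 and -0.87 ± 0.78 for Trim25. Each of these values was larger than its standard error, which was derived from the test's F value and rests on the fit over all 18 libraries. Among the OAS family, the log2 fold change was -2.94 ± 1.26 for Oas1a, -2.55 ± 1.16 for Oas1b, -2.87 ± 1.18 for Oas2, -2.10 ± 0.92 for Oasl and -2.65 ± 1.22 for Oasl2. Within the IFIT family, the log2 fold change was -2.02 ± 2.14 for Ifit1, -1.05 ± 0.77 for Ifit2 and -2.70 ± 1.39 for Ifit3. Among the MX GTPases, the log2 fold change was -1.68 ± 0.99 for Mx1 and -2.01 ± 0.98 for Mx2. Of the Oas, Ifit and Mx genes, Ifit1 alone had an error larger than its value. Within the membrane and other effectors, the log2 fold change was -2.20 ± 1.03 for Rsad2, -0.58 ± 0.37 for Cmpk2, -1.62 ± 0.69 for Bst2, -1.08 ± 0.68 for Ifitm3, -0.22 ± 0.39 for Samhd1, -2.81 ± 1.25 for Rtp4, -1.55 ± 0.93 for Xaf1, -0.59 ± 0.30 for Ifi27, -1.45 ± 0.73 for Ifi44, -1.03 ± 0.49 for Ifi35 and -0.998 ± 0.67 for Sp100. Among the ADP-ribosylation group, the log2 fold change was -0.995 ± 0.64 for Parp9, -1.20 ± 0.72 for Parp14 and -1.21 ± 0.68 for Dtx3l. Isg15 averaged 4.93 ± 0.806 CPM in NPP_herb and 77.7 ± 66.0 CPM in NPP_solvent (SD, n = 3 each), so the spread in NPP_solvent was nearly as large as its mean. Family medians ran from -2.65 in the 5 Oas genes and -2.42 in the 4 ubiquitin-like genes to -1.06 in the 3 signalling factors. NPP_solvent replicate 3 lay below all NPP_herb libraries in 15 of 35 members and above all of them in 2. That library also had the highest sum of the 6 fibroblast markers. They summed to 1890, 1600 and 1460 CPM in NPP_herb, to 1350, 1350 and 2990 CPM in NPP_solvent and to at most 1980 CPM in the other groups. Most of the sum in that library was Col1a1, Col1a2 and Col3a1, at 727, 575 and 887 CPM. Lum had 131 CPM there and 129 CPM in Sham_solvent replicate 3. Dcn and Pdgfra had 650 and 16.3 CPM there, but 756 and 20.1 CPM in Sham_solvent replicate 2. The part of these markers in the result was not tested. The median was -2.08 without that library and -1.18 without NPP_solvent replicate 1.

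**Figure D3:**
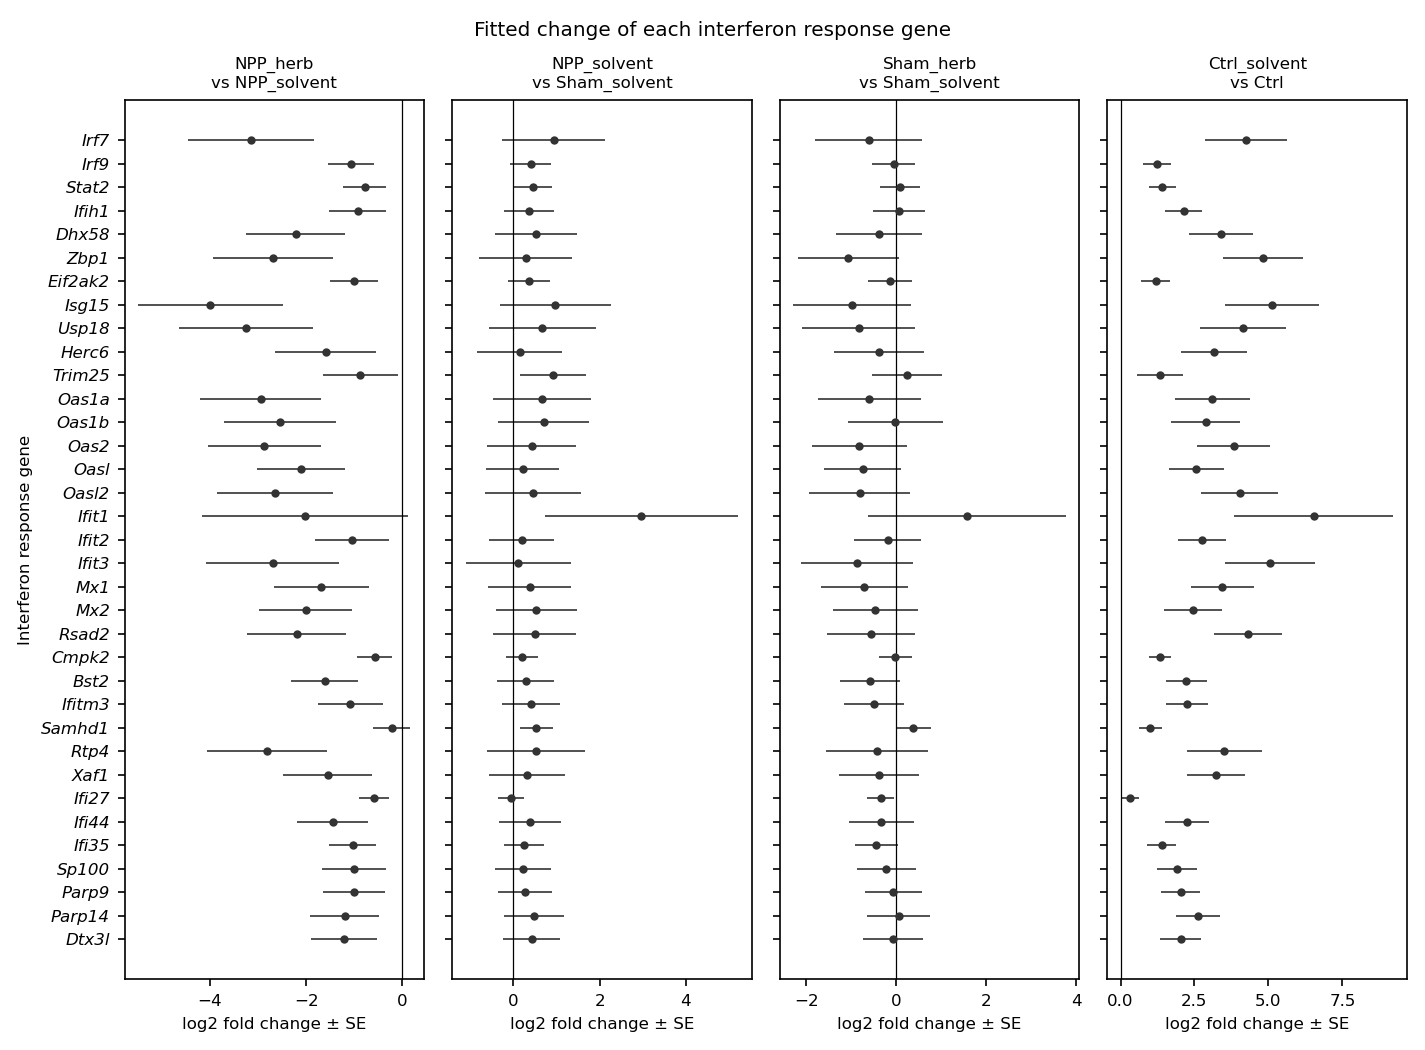
Fitted log2 fold change of each interferon response gene with its standard error in 4 comparisons, the first-named group over the second (n = 3 libraries per group, edgeR). The error was derived from the F value of the fit over all 18 libraries. The vertical line is no change and each panel has its own scale. All points lie left of 0 for NPP_herb against NPP_solvent and right of 0 for Ctrl_solvent against Ctrl, and no gene passed an adjusted p of 0.05.

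NPP_solvent was set against Sham_solvent to see the pain model under solvent. Fitted levels were higher in NPP_solvent for 34 of 35 members, with a median log2 fold change of 0.41 against 0.0075 for all genes, from -0.047 (Ifi27) to 2.97 (Ifit1). The fitted log2 fold change was 0.97 ± 1.30 for Isg15, 0.93 ± 1.19 for Irf7, 0.53 ± 0.94 for Mx2 and 0.44 ± 0.44 for Stat2 (SE, n = 3 libraries per group). Their adjusted p was 0.857, 0.849, 0.893 and 0.809 (edgeR), and the smallest of any member was 0.766, for Samhd1. No gene was called by edgeR (0%) or DESeq2, 0 members and 5.67% of all genes had an unadjusted p under 0.05, and 0 members had groups that did not overlap, beside 8.11% of all genes. Within the signalling factors, the log2 fold change was 0.40 ± 0.48 for Irf9. Among the nucleic acid sensors, the log2 fold change was 0.37 ± 0.58 for Ifih1, 0.52 ± 0.95 for Dhx58, 0.28 ± 1.08 for Zbp1 and 0.36 ± 0.49 for Eif2ak2. Within the ubiquitin-like system, the log2 fold change was 0.67 ± 1.24 for Usp18, 0.15 ± 0.99 for Herc6 and 0.93 ± 0.76 for Trim25. Trim25 alone among these had a value larger than its standard error. Among the OAS family, the log2 fold change was 0.66 ± 1.13 for Oas1a, 0.70 ± 1.06 for Oas1b, 0.43 ± 1.03 for Oas2, 0.22 ± 0.85 for Oasl and 0.45 ± 1.11 for Oasl2. Within the IFIT family, the log2 fold change was 0.19 ± 0.75 for Ifit2 and 0.12 ± 1.22 for Ifit3. Among the MX GTPases, the log2 fold change was 0.38 ± 0.96 for Mx1. None of these Oas, Ifit and Mx values exceeded its standard error. Within the membrane and other effectors, the log2 fold change was 0.49 ± 0.97 for Rsad2, 0.20 ± 0.37 for Cmpk2, 0.28 ± 0.66 for Bst2, 0.41 ± 0.67 for Ifitm3, 0.54 ± 0.39 for Samhd1, 0.52 ± 1.13 for Rtp4, 0.32 ± 0.89 for Xaf1, -0.047 ± 0.30 for Ifi27, 0.38 ± 0.71 for Ifi44, 0.25 ± 0.47 for Ifi35 and 0.21 ± 0.65 for Sp100. Among the ADP-ribosylation group, the log2 fold change was 0.27 ± 0.63 for Parp9, 0.48 ± 0.70 for Parp14 and 0.43 ± 0.66 for Dtx3l. The Ifit1 value of 2.97 ± 2.24 rests on 1617 reads in NPP_solvent replicate 2. The median moved with each library left out: it was 0.036 without NPP_solvent replicate 1 (19 of 35 members higher), 0.23 without NPP_solvent replicate 2 and 0.83 without NPP_solvent replicate 3. It was 0.15 without Sham_solvent replicate 1, 1.47 without Sham_solvent replicate 2 and 0.066 without Sham_solvent replicate 3. This comparison and the one above share the NPP_solvent libraries, so the values of both depend on the same libraries.

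Sham_herb was set against Sham_solvent to see the herb treatment without the pain model. Sham_herb was lower than Sham_solvent in 29 of 35 members and higher in 6, with a median of -0.39 on the log2 scale against 0.0053 for all genes. The largest fitted changes were 1.57 ± 2.20 for Ifit1, -1.07 ± 1.12 for Zbp1 and -0.97 ± 1.31 for Isg15 (SE, n = 3 libraries per group). No gene was called (edgeR, 0%, smallest adjusted p of a member 0.65; DESeq2 0), and 0 members had an unadjusted p under 0.05, beside 9.89% of all genes. No member had groups that did not overlap, beside 14.6% of all genes. Without Sham_solvent replicate 2 the median was 0.73 and 32 of 35 members were higher in Sham_herb. The median was -0.72 without Sham_solvent replicate 3, -0.66 without Sham_solvent replicate 1, -0.69 without Sham_herb replicate 1 and -0.10 without Sham_herb replicate 3.

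The herb effect in the pain model minus the herb effect in sham animals was negative for all 35 members, with a median of -1.16 on the log2 scale and a median of -0.017 for all genes. The largest values were -3.59 ± 3.07 for Ifit1, -3.02 ± 1.93 for Isg15 and -2.54 ± 1.73 for Irf7 (SE). No gene passed for this difference (edgeR, 0%, smallest adjusted p of a member 0.92), and 0 members and 3.40% of all genes had an unadjusted p under 0.05. DESeq2 called 3 genes and 0 members. The median was -2.42 without Sham_solvent replicate 2 and -0.77 without NPP_solvent replicate 1.

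Under herb, NPP_herb was lower than Sham_herb in 35 of 35 members, with a median of -0.75 against -0.0033 for all genes. The largest fitted changes were -2.04 ± 1.43 for Isg15, -1.86 ± 1.22 for Rtp4 and -1.83 ± 1.14 for Oas1b (SE, n = 3 libraries per group). No gene was called by edgeR (0%, smallest adjusted p of a member 1), DESeq2 called 2 genes and 0 members, and 0 members and 1.40% of all genes had an unadjusted p under 0.05. Groups did not overlap in 8 members, or 22.9% of them, all lower in NPP_herb, beside 4.17% of all genes. These were Stat2, Dhx58, Zbp1, Usp18, Oas2, Mx2, Ifi27 and Ifi44.

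Sham_solvent was lower than Ctrl_solvent in 34 of 35 members, with a median of -0.91 on the log2 scale against -0.0073 for all genes. Ifit1 had the largest fitted change at -4.73 ± 2.38, followed by Zbp1 at -1.77 ± 1.10 and Ifit3 at -1.59 ± 1.24 (SE, n = 3 libraries per group). No gene passed with edgeR (0%, smallest adjusted p of a member 0.739), DESeq2 called 35 genes and 0 members, and 3 members had an unadjusted p under 0.05, beside 6.12% of all genes. No member had groups that did not overlap, beside 7.14% of all genes. The median was -2.30 without Sham_solvent replicate 2, -0.55 without Ctrl_solvent replicate 1 and -1.37 without Ctrl_solvent replicate 2, where 252 genes and 1 member, Cmpk2, were called.

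Ctrl_solvent against Ctrl, the comparison of solvent with no listed treatment, had the largest median difference of the 7 comparisons. All 35 members had higher fitted levels in Ctrl_solvent, with a median log2 fold change of 2.63 against 0.0063 for all genes, from 0.32 (Ifi27) to 6.53 (Ifit1). The next largest values were 5.13 ± 1.59 for Isg15 and 5.07 ± 1.52 for Ifit3 (SE, n = 3 libraries per group). No gene passed with edgeR (0%), where the smallest adjusted p of a member was 0.146, for Rsad2, and 33 members, 94.3% of them, had an unadjusted p under 0.05, beside 13.0% of all genes. DESeq2 called 21 members, all higher, among 467 genes (2.74%), with an adjusted p of 0.00119 for Rsad2. Groups did not overlap in 14 members, 40.0% of them, all higher in Ctrl_solvent, beside 8.45% of all genes. Without Ctrl_solvent replicate 2, edgeR called 734 genes and 18 members, and the median was 3.13. With each other library of these groups left out singly, edgeR called 0 members. Ctrl replicates 2 and 3 had 1 and 0 reads of the Y-linked gene Eif2s3y. Ctrl replicate 1 had 3006 reads of it, and Ctrl_solvent replicates 1, 2 and 3 had 2373, 4411 and 2717. The part of this in the difference between the groups was not tested.

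Upstream and parallel genes of the pathway were described from lists. The 9 receptor and kinase genes, Ifnar1, Ifnar2, Jak1 and Tyk2 among them, summed to 484 to 603 CPM in all libraries, with a median log2 fold change of -0.029 for NPP_herb against NPP_solvent and 0.15 for Ctrl_solvent against Ctrl. Ddx58 (RIG-I), a sensor of viral RNA ends, had 13.6, 11.8 and 12.2 CPM in NPP_herb against 58.8, 43.6 and 12.7 in NPP_solvent, 28.5, 22.6 and 12.9 in Sham_herb against 15.0, 61.3 and 9.12 in Sham_solvent, and 67.7, 10.2 and 56.4 in Ctrl_solvent against 9.58, 9.22 and 6.92 in Ctrl. NPP_herb overlapped NPP_solvent for Ddx58, and the Ctrl_solvent and Ctrl libraries did not overlap. Of 12 sensing and adaptor genes tested, edgeR called 0 in each comparison, and 10 were lower in NPP_herb than in NPP_solvent, with a median of -0.29 on the log2 scale. The adaptor Mavs, which passes on the signal of RNA sensors, ran from 15.8 to 21.2 CPM over all libraries.

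Of 31 other interferon-induced genes tested, edgeR called 0 in each comparison. In NPP_herb 30 were lower than in NPP_solvent, with a median log2 fold change of -1.11, and 28 were higher in NPP_solvent than in Sham_solvent, with a median of 0.38. In Ctrl_solvent 31 were higher than in Ctrl, with a median of 2.98. A few of the listed genes are better known as targets of interferon gamma. Gbp2, an interferon-induced guanylate-binding protein, had 36.6, 19.96 and 22.4 CPM in NPP_herb against 74.2, 71.2 and 26.7 in NPP_solvent, 50.5, 119 and 25.4 in Sham_herb against 27.8, 61.3 and 19.96 in Sham_solvent, and 376, 21.8 and 409.6 in Ctrl_solvent against 19.5, 25.1 and 18.2 in Ctrl. Cxcl9, a chemokine induced by interferon gamma, had 1.56, 2.23 and 1.85 CPM in NPP_herb against 4.34, 4.75 and 1.17 in NPP_solvent, 3.56, 15.3 and 0.818 in Sham_herb against 0.691, 2.67 and 0.675 in Sham_solvent, and 51.7, 2.33 and 80.2 in Ctrl_solvent against 1.10, 0.582 and 0.980 in Ctrl. Irf1, a transcription factor of the gamma response, had 10.7, 8.53 and 8.22 CPM in NPP_herb against 16.4, 17.2 and 8.62 in NPP_solvent, 12.9, 27.9 and 9.91 in Sham_herb against 8.62, 13.8 and 9.996 in Sham_solvent, and 106, 9.88 and 105 in Ctrl_solvent against 7.11, 8.73 and 8.88 in Ctrl. All 3 were highest in Ctrl_solvent replicates 1 and 3, next highest in Sham_herb replicate 2, and lower than that in NPP_solvent replicates 1 and 2 and Sham_solvent replicate 2. Among the other listed genes, Gbp5, Ifi47, Psmb8 and Nlrc5 were some that shared this order. Tap1 and Irgm were some that did not. In Sham_herb replicate 2 Tap1 had 29.97 CPM, below 46.98 and 48.94 CPM in NPP_solvent replicates 1 and 2. Irgm had 17.2 CPM there, below 24.9 and 18.9 CPM. Gbp2, Cxcl9, Irf1, Gbp5, Ifi47, Psmb8, Nlrc5, Tap1 and Irgm were named here after their values were seen.

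Interferon genes themselves were near the limit of detection. Ifng, which encodes interferon gamma, had 13 and 12 reads in Ctrl_solvent replicates 1 and 3 and 0 in the other 16 libraries. Exact Poisson 95% intervals, which cover counting error only, were 6.92 to 22.2 and 6.20 to 21.0 reads, with an upper bound of 3.69 reads for a count of 0. Ifna1, an interferon alpha gene, had 0.097 to 0.812 CPM in all libraries, and its fitted log2 fold change was 0.34 ± 0.59 (SE) for NPP_herb against NPP_solvent. Of the 12 interferon symbols listed, 4 matched a row of the table and 1 was tested.

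Some macrophage markers, Lyz2 and the complement C1q genes among them, were high in the same libraries as these genes, and others were not. The 12 macrophage markers, all detected in every library, summed to 443, 446 and 325 CPM in NPP_herb and to 841, 640 and 270 CPM in NPP_solvent. They summed to 228, 523 and 346 CPM in Sham_herb, against 335, 894 and 516 CPM in Sham_solvent. In Ctrl_solvent the sums were 1360, 388 and 1380 CPM, against 262, 448 and 201 CPM in Ctrl. The 5 high libraries of the interferon response were also the 5 highest for this sum, in which Lyz2, which encodes lysozyme, made up 53.3% to 69%. Without Lyz2 the other 11 markers summed to 253 to 521 CPM in these 5 libraries and to 79.5 to 176 CPM in the other 13. Taken singly, 6 of the 12 markers (Cd68, Aif1, Lyz2, C1qa, C1qb and C1qc) had the same 5 highest libraries and the other 6 (Cd163, Mrc1, Csf1r, Adgre1, Cx3cr1 and Itgam) did not. Mrc1, the mannose receptor of macrophages, had 11.1, 10.4 and 15.9 CPM in NPP_herb against 8.30, 10.96 and 12.2 in NPP_solvent, 7.78, 20.5 and 9.68 in Sham_herb against 16.1, 13.4 and 18.2 in Sham_solvent, and 17.0, 17.4 and 16.8 in Ctrl_solvent against 11.3, 8.54 and 7.31 in Ctrl. It was highest in Sham_herb replicate 2, and NPP_solvent replicate 1 and Sham_solvent replicate 2 were the lowest of their groups. In the fit 10 of 12 macrophage markers were lower in NPP_herb than in NPP_solvent (median log2 fold change -0.45), 9 were higher in NPP_solvent than in Sham_solvent (0.078) and 12 were higher in Ctrl_solvent than in Ctrl (1.80), with 0 called by edgeR. The 10 T and NK cell markers, of which 8 to 10 were detected per library, summed to 85.6, 32.5 and 101 CPM in Ctrl_solvent and to 15.4 to 32.9 CPM in all other groups. Most of the sum in the other groups was Cd4, at 13.1 to 22.4 CPM, followed by Ptprc at 1.80 to 7.40 CPM. In Ctrl_solvent Cd4 had 31.3, 25.2 and 32.6 CPM and Ptprc 15.9, 4.44 and 24.6 CPM. Cd3e had 4.17, 0.325 and 3.81 CPM there and Cd8a 7.41, 0.677 and 7.79 CPM. In the other groups they reached at most 0.949 and 1.10 CPM. The 5 red blood cell markers summed to 104, 147 and 592 CPM in NPP_herb and to 16.5, 40.7 and 121 CPM in NPP_solvent. Their sums were 27.6, 54.4 and 38.4 CPM in Sham_herb, 92.1, 20.4 and 656 CPM in Sham_solvent, 10, 594 and 3.19 CPM in Ctrl_solvent and 75.2, 586 and 103 CPM in Ctrl. The 7 neutrophil markers summed to 69.5, 89.3 and 119 CPM in NPP_herb and to 43.9, 49.5 and 49.9 CPM in NPP_solvent. Their sums were 32.2, 98.6 and 54.7 CPM in Sham_herb, 92.6, 100 and 158 CPM in Sham_solvent, 156, 67.9 and 45.8 CPM in Ctrl_solvent and 81.9, 369 and 44.3 CPM in Ctrl. All 7 had higher fitted levels in NPP_herb than in NPP_solvent (median log2 fold change 1.08) and than in Sham_herb (0.84), and lower ones in NPP_solvent than in Sham_solvent (-1.28) and in Sham_herb than in Sham_solvent (-0.93), so they lay opposite to most interferon response genes in all of these but the last. All 7 were also positive in the difference of herb effects (1.96), and edgeR called 0 of them in each comparison. The 4 markers of plasmacytoid dendritic cells, strong makers of interferon alpha, summed to 5.22 to 13.9 CPM. Nearly all of this was Il3ra, a cytokine receptor subunit that other cells also carry, at 4.95 to 13.8 CPM, while Spib was at 0 to 0.776, Siglech at 0 to 0.433 and Ccr9 at 0 to 0.0571 CPM. Il3ra was highest in Sham_solvent replicate 1, a library low in most interferon response genes. The part of these cell markers in the differences above was not tested.

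**Figure D4:**
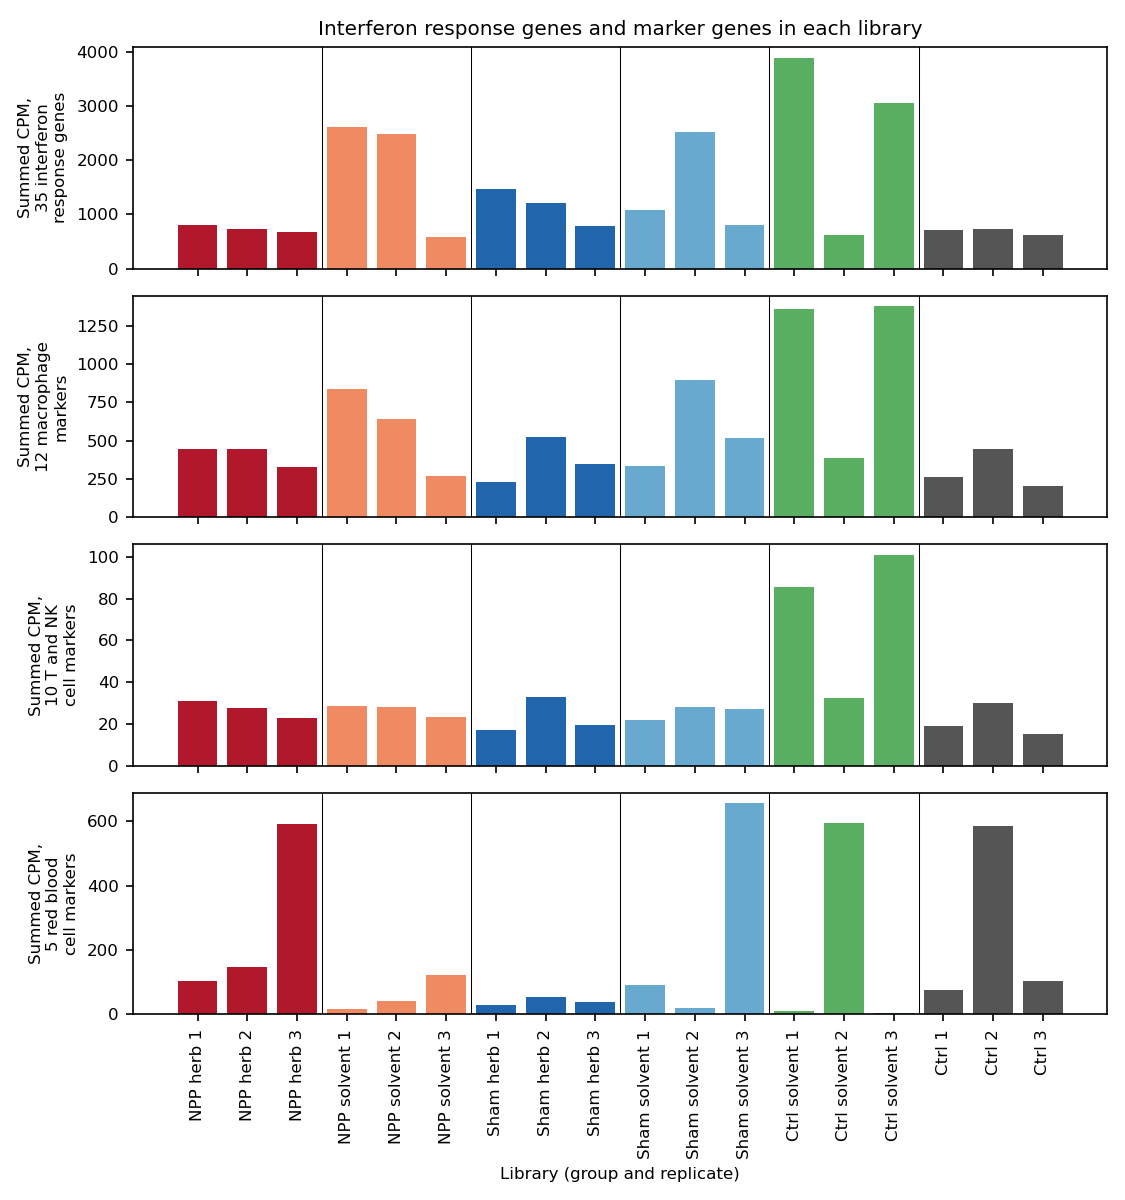
Summed CPM of the 35 interferon response genes, 12 macrophage markers, 10 T and NK cell markers and 5 red blood cell markers in each library, by group; all axes start at 0. The 5 tallest bars of the top and second panels, the second made up mostly of Lyz2, fall in the same libraries, T and NK cell markers stand out in Ctrl_solvent replicates 1 and 3 alone, and red blood cell markers lie at 3.19 to 40.7 CPM in the 5 highest libraries of the top panel.

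The genes outside the list with the most similar profile were found by the root mean square difference, over the 18 libraries, from the members' mean centred log2 CPM. Among 14333 other genes of at least 1 CPM, the nearest were Ddx58 (0.234 log2 units), Uba7 (0.245), Samd9 (0.248), RT1-N3 (0.296) and LOC120093070 (0.321). Next came Irgm (0.355), Oas1i (0.360), Gbp4 (0.364), Rnf213 (0.364) and Slfn13 (0.380). A gene with no variation would lie at 1.18 and the median candidate lay at 1.20. On the deposited FPKM, 7 of these 10 were again among the nearest 10. Of the members, Ifit2 (0.264), Mx2 (0.313) and Oasl (0.321) lay closest to the members' own mean, and Isg15 (1.09) and Ifit1 (3.22) farthest.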

How the data were processed

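Ganglia of 18 libraries were sequenced as messenger RNA. The labels' protocols name bead capture of messenger RNA and a stranded kit. The deposited count table holds whole-number reads per gene, unnormalized. The deposited FPKM table was scaled by the authors to gene length and library size. Per the submitters' processing notes, HISAT2, DESeq2 and the build mRatBN7.2 were used. The sources used here do not name the counting tool, its strand setting or the annotation. Without a stated strand setting, overlapping genes cannot be told apart. Close copies (Oas1a and Oas1b, Mx1 and Mx2, Ifit1 and Ifit1bl) may share reads.

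Counts were tested with the quasi-likelihood test of edgeR 4.0.16 in R 4.3.3 (robust, TMM factors of 0.946 to 1.04, filterByExpr by group), in one fit over all 18 libraries with 1 coefficient per group and 12 residual degrees of freedom. The filter removed 8635 genes, which held at most 0.0495% of a library's reads. P-values were adjusted by Benjamini-Hochberg across 17043 genes, with a threshold of 0.05. There were 7 comparisons. The standard error of a fitted log2 fold change is its size divided by the square root of the test's F value. It thus rests on the fit over all 18 libraries and not on the 3 libraries of each group alone. CPM values use TMM library sizes. DESeq2 1.42.0, its size factors, no filter, a fit on only the groups compared, a replicate block and each library left out were alternatives. The edgeR steps were tested on simulated data. Libraries of a group differed by more than sampling noise (smallest chi-square per degree of freedom 12.8 over 18 pairs), and each was counted as 1 sample. This spread may be technical, so it cannot show that the libraries stem from different rats.

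The members and lists were chosen with earlier results of these data known. By a rule written with the lists, 29 members get values in every library, the others ranges. Fitted changes of single members are given for NPP_herb against NPP_solvent and NPP_solvent against Sham_solvent. In other comparisons the 3 largest are named. Nearest profiles are the 10 non-members of at least 1 CPM with the smallest difference. Ifit1bl, Ifi27 by library, Gbp2, Cxcl9 and Irf1, and Gbp5, Ifi47, Psmb8, Nlrc5, Tap1 and Irgm beside them, were named after their values were seen.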

Additional observations from a re-analysis of the deposited data

How the results depend on the processing

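The members' direction held under size factors of DESeq2, no filter, only the groups compared and the replicate block in all 7 comparisons for the median, and edgeR called 0 members under each of these. Same-numbered libraries deviated together at a median r of 0.0082 (-0.28 to 0.23, 9 of 45 pairs over 0.1). Libraries of different numbers did so at -0.00445 (-0.306 to 0.327, 21 of 90 pairs over 0.1). These values cannot show whether a shared number stands for a shared batch or day, which the labels do not say. With the replicate block the median was -1.35 for NPP_herb against NPP_solvent and 0.36 for NPP_solvent against Sham_solvent, where Ifit3 reversed to -0.053. DESeq2 called 467 genes and 21 members in Ctrl_solvent against Ctrl, 35 genes in Sham_solvent against Ctrl_solvent, 1 gene in NPP_herb against NPP_solvent (LOC120102105), 2 in NPP_herb against Sham_herb (LOC120102105, Rn45s) and 3 in the difference of herb effects (LOC120102105, Gjb2, Igf2). With no filter edgeR called 1 gene in Ctrl_solvent against Ctrl (Tbxas1). The cause of these differences was not tested.

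With each library left out in turn, edgeR called 0 to 734 genes and 0 to 18 members in Ctrl_solvent against Ctrl, 0 to 252 genes and 0 to 1 member in Sham_solvent against Ctrl_solvent, 0 to 2 genes in NPP_herb against Sham_herb and 0 to 1 gene in the difference of herb effects. The median ranged from -2.42 to -0.77 for that difference and from -0.72 to 0.73 for Sham_herb against Sham_solvent. For NPP_solvent against Sham_solvent the log2 fold change of single members changed sign with a library left out in 18 genes: Bst2 (-0.082 to 0.76), Cmpk2 (-0.013 to 0.46), Herc6 (-0.61 to 1.83), Ifi27 (-0.32 to 0.28), Ifi35 (-0.042 to 0.67), Ifih1 (-0.049 to 1.39), Ifit1 (-0.17 to 3.68), Ifit2 (-0.36 to 1.01), Ifit3 (-0.90 to 1.63), Ifitm3 (-0.070 to 0.996), Mx1 (-0.13 to 1.82), Oas2 (-0.47 to 2.51), Oasl (-0.20 to 1.32), Oasl2 (-0.13 to 2.95), Parp9 (-0.10 to 1.15), Sp100 (-0.15 to 1.05), Xaf1 (-0.047 to 1.34) and Zbp1 (-0.21 to 1.66). For NPP_herb against NPP_solvent it did so in Ifit1 (-2.61 to 1.10) and Samhd1 (-0.57 to 0.10). With the second block of the motif shortened by 1 base, 61.5% of the 26 members with a promoter and 9.71% of all promoters held it. With 3 libraries a group, a lack of calls does not show that a difference is absent. Genes of few reads, such as Oas2, Zbp1 and Trim25, carry more counting error.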
